A study of Homo sapiens with 2 samples.

Results

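RNF genes are human genes whose approved symbol is RNF, for RING finger protein, followed by a number. All genes with such a symbol in the platform annotation were taken, each read through probe sets annotated to that gene and no other. The rule found 75 genes, read by 162 probe sets, among 19775 genes with a probe set of their own. A further 5 symbols carry an extra ending (the pseudogene RNF126P1, the antisense transcripts RNF157-AS1, RNF213-AS1 and RNF217-AS1, and the divergent transcript RNF139-DT) and were kept apart.

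The series compared 2 cultures of Huh-7, an established human hepatoma cell line, on an Affymetrix expression array. Both cultures were first incubated for 24 hours. One was then kept for 6 hours in medium with 100 U/mL of recombinant human interferon-alpha 2b. The other had its medium exchanged and received no interferon (0 U/mL). When the untreated culture was harvested is not given in the sources used here. Each condition was measured on 1 array, so no value has a replicate error, no test could be made, and every ratio describes these 2 arrays. The number of arrays limits the precision. The cell line was checked against its markers: the 7 hepatocyte and hepatoma genes with a probe set, among them ALB and AFP, had untreated intensities from 3000 to 12212, and none was below the floor, the median of all values of non-control probe sets. Of markers of other cell types, 3 of 5 leukocyte genes, 2 of 3 endothelial genes and 2 of 4 stellate and fibroblast genes were above the floor on both arrays. Among the leukocyte genes LYZ was bright, at 2064 and 2271, CD79A had 105 and 89.1, CD14 had 91.1 and 76.5, and PTPRC and CD3E did not reach the floor on either. Of the endothelial genes PECAM1 had 158 and 152, VWF had 67.1 and 49.99, and CDH5 was below the floor. COL1A1 had 176 and 187 and PDGFRB 134 and 132, while ACTA2 and DCN were below the floor. The part of other cell types in the ratios was not tested.

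The RING finger is a small zinc-binding fold that holds a ubiquitin-charged E2 enzyme beside a substrate, so that most proteins with it act as E3 ubiquitin ligases. An E1 enzyme activates ubiquitin, an E2 carries it and the E3 chooses the target. The chain that is built can send a protein to the proteasome or change its partners or place in the cell. RNF symbols were given for the presence of the fold, so the family holds ligases of unrelated function. RNF213 is a very large protein with both an AAA+ ATPase core and ligase activity. Variants in its gene are the main known susceptibility factor for moyamoya disease, a narrowing of the arteries at the base of the brain, and the protein has been described as an interferon-induced defence factor against bacteria and viruses.

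Values are intensities on a linear scale, as deposited. The 50th percentile of the values of the arrays together, an intensity of 48.46, served as a floor, and lower values were raised to it before a ratio was taken. A gene was counted where its brightest probe set (by the mean of its log2 intensities) was above the floor on at least 1 array. Of the 75 RNF genes 59 were counted (78.7%, against 67.1% of all genes), 58 of them through values above this floor in both cultures, and 16 lay below it in both. Ratios are interferon over untreated.

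RNF213 was the only RNF gene at least 2-fold higher with interferon, and no RNF gene was at least 2-fold lower. The background was 57 of 13269 counted genes at least 2-fold higher, or 0.43%, and 0 lower, or 0%. One member in 59 is 1.69%, a count too small to be read as more than that gene. At a threshold of 1.5-fold the members higher were again RNF213 alone, against 0.754% of all counted genes, and 0 members were lower, against 0.0829%. On its chosen probe set RNF213 stood at place 37 from the top among the 13269 counted genes, some of whose ratios are lower bounds.

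The probe sets of RNF213 did not give the same picture. Probe set 225929_s_at, the one chosen as the brightest, had an intensity of 97.2 in untreated cells and 312 after interferon, or 3.21-fold (log2 1.68). Probe set 225931_s_at had 63.3 and 179, or 2.83-fold (log2 1.502). Both were above the floor without interferon as well, so these folds are measured on both sides.

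A further 3 probe sets were below the floor in the untreated culture and above it with interferon, so their folds are lower bounds. Probe set 230000_at had intensities of 39.5 and 226, at least 4.66-fold higher. Probe set 232155_at had 43.0 and 184, at least 3.80-fold higher. Probe set 231956_at had 18.4 and 134, at least 2.76-fold higher. On all 5 of these probe sets the interferon array was the brighter by more than 2-fold.

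The remaining 3 stayed under 2-fold. Probe set 241347_at, the brightest of the gene on the untreated array, had 116 and 172, or 1.476-fold (log2 0.56). Probe set 233880_at had 49.9, close to the floor, and 67.3, or 1.35-fold (log2 0.43). Probe set 241480_at lay below the floor in both cultures, at 44.7 and 39.0, and was the only one dimmer with interferon. In all, 7 of the 8 probe sets were brighter on the interferon array. Of the 7 counted ones 5 passed 2-fold, and the median log2 ratio over the counted ones was 1.502. Of these 5, 3 were counted only through their interferon value, a rule that favours probe sets higher with interferon. Of the 4 above the floor on both arrays, 241347_at and 233880_at stayed under 2-fold and the others passed it. Over all 8 as measured, without floor or filter, 5 passed 2-fold and the median log2 ratio was 1.59. Among all counted probe sets of 1 gene, 0.364% were at least 2-fold higher and 0% lower.

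**Figure D1:**
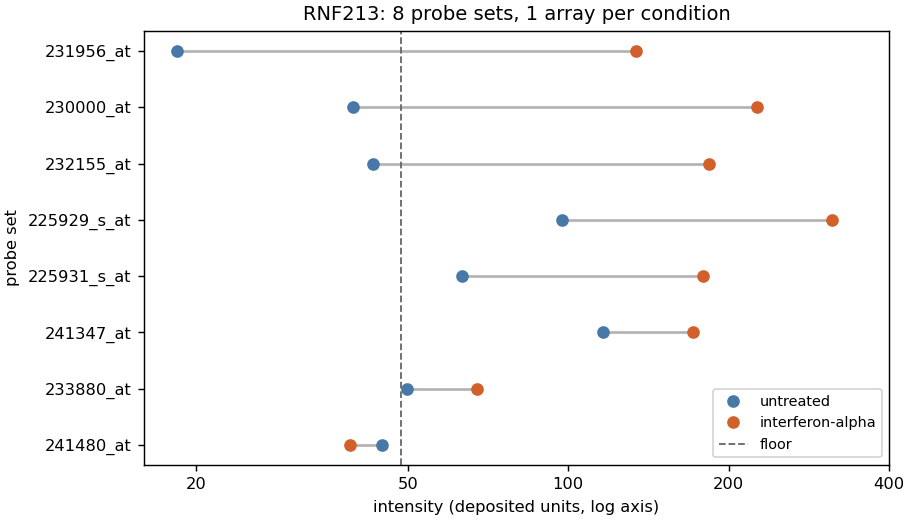
Intensity (log axis, deposited units) of the 8 RNF213 probe sets on the untreated array (blue) and the interferon-alpha array (orange), joined by a line, with the floor of 48.46 dashed. The upper 5 probe sets lie more than 2-fold apart, 241347_at and 233880_at less, and 241480_at is below the floor on both arrays.

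The call on RNF213 thus depends on which probe set stands for the gene. With the probe set brightest on the untreated array, or without probe sets whose names end in _x_at or _s_at, 241347_at took its place, the log2 ratio was 0.56, and no RNF gene was at least 2-fold higher. Which part or which transcript form of RNF213 each probe set reads was not analysed here.

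Of the 3 protein-coding genes on either side of RNF213 on chromosome 17, in RefSeq order, none was near its ratio. SLC26A11 and SGSH on one side had log2 ratios of -0.10 and 0.02, and ENDOV on the other had -0.15. Next to these, CARD14 had 0.03 and RPTOR -0.04, and NPTX1 was below the floor on both arrays. The antisense transcript RNF213-AS1, read by a probe set of its own, had intensities of 12.1 and 11.7, below the floor on both arrays.

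The start of RNF213 is shown because it is the 1 member past 2-fold and because its sequence is unusual. The window is the 250 bases before the annotated start of the gene in RefSeq (GRCh38.p14), chr17:80260602-80260851 on the plus strand. For comparison, the same stretch is given of RNF31, chr14:24146625-24146874, plus strand, and of ISG15, an interferon-induced gene that is no member, chr1:1013247-1013496, plus strand. ISG15 had intensities of 351 and 8332 on these arrays. Capitals mark matches to a core of the interferon-stimulated response element (ISRE), a promoter element of many interferon-induced genes, which was searched as GAAANNGAAA on both strands, overlapping matches included.
RNF213: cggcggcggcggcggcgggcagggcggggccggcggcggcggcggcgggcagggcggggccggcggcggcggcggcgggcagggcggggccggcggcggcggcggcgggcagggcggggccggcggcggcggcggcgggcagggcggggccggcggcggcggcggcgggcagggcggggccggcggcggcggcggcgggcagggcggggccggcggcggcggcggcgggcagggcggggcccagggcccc
RNF31: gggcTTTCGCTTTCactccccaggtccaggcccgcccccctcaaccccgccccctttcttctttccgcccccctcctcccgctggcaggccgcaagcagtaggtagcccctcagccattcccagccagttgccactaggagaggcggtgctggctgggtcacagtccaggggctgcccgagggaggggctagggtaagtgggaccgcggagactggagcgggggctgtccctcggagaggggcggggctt
ISG15: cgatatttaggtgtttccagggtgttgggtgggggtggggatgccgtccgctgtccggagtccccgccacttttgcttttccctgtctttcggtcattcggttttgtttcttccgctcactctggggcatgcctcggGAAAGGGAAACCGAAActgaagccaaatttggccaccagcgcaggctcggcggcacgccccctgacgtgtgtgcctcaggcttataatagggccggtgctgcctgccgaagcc

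The RNF213 window held no match to that core. It consists of G and C in 96.4% of its bases, and its first 241 bases are an exact tandem repeat of a 30-base unit, about 8.03 copies long. The ISG15 window held 2 overlapping matches, starting 113 bases before the gene. The RNF31 window held 1, starting 246 bases before the gene, and a second RNF31 window in the table held none. A match describes letters, not a bound site, and the absence of a match says only that these letters are not in the window.

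Promoter windows of 300 bases (250 before to 50 after a start) were given for 63 of the 75 RNF genes, 95 windows in all. The ISRE core was in 2 of those 95 (2.11%) against 3.57% of all 35116 windows and 2.71% of the 15409 windows of counted genes. The RNF genes with a match were RNF31, with a log2 ratio of -0.17, and RNF32, which was below the floor on both arrays. By contrast, 33 of the 61 windows of the genes at least 2-fold higher (54.1%) held it. The core of the interferon-gamma activated site was searched as TTCNNNGAA, which reads the same on both strands. It was in 6 of the 95 RNF windows (6.32%), in 7.66% of all windows and in 6.25% of windows of counted genes. Among windows of genes at least 2-fold higher, 16 of 61 (26.2%) held it. The 6 RNF windows were those of RNF10, RNF121, RNF123, RNF145, RNF167 and RNF181, whose log2 ratios ran from -0.06 for RNF123 to 0.31 for RNF145. RNF213 had no match to this core either.

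The other 58 counted RNF genes lay between -0.33 and 0.35 on the log2 scale, that is, between 1.26-fold lower and 1.27-fold higher. Their median log2 ratio was 0.03, the same to 2 decimals as that of all 13269 counted genes. For all genes measured above the floor in both cultures, 95% of the log2 ratios, taken centrally, fell between -0.29 and 0.30. This spread is over genes within the pair of arrays and is no replicate error. Of the 58 members measured on both arrays, 5 fell outside it, namely RNF213, RNF144A, RNF145 and RNF128 on the upper side and RNF215 on the lower.

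**Figure D2:**
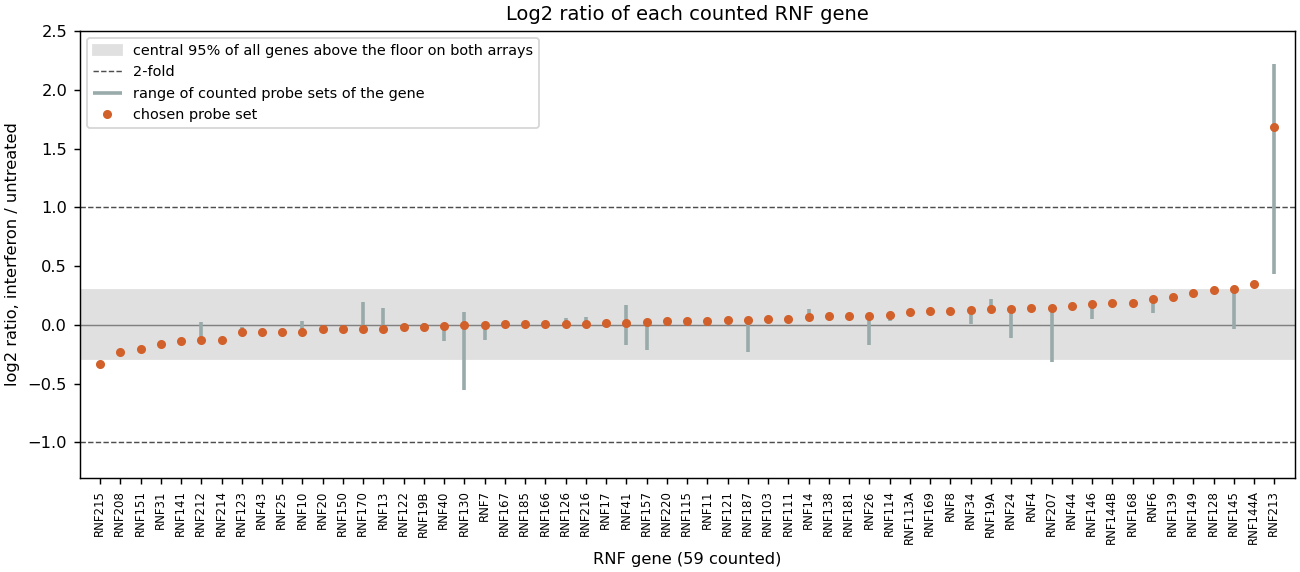
Log2 ratio of interferon over untreated (vertical axis) of the 59 counted RNF genes in order of their ratio. Points are the chosen probe set, bars the range over a gene's counted probe sets, the grey band the central 95% of all genes above the floor on both arrays (-0.29 to 0.30) and dashed lines 2-fold; RNF213 at 1.68 stands alone above the upper line.

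The highest ratio below that of RNF213, and so the nearest member under the 2-fold threshold, was that of RNF144A, a RING-between-RING ligase. It had intensities of 98.3 and 125, or 1.27-fold, and its other probe set was below the floor. RNF145, a ligase of the endoplasmic reticulum membrane with a sterol-sensing domain, had 211 and 261 (log2 0.31), while another of its counted probe sets had a log2 ratio of -0.03. RNF128, known as GRAIL for its part in T cell anergy, had 661 and 815 (log2 0.30). All of them were just above the upper edge of the band.

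RNF149, a transmembrane relative of RNF128, had intensities of 497 and 601 (log2 0.27). RNF139, also called TRC8, a ligase of the endoplasmic reticulum, had 352 and 414 (log2 0.24). RNF6 had 579 and 674 (log2 0.22). RNF168, which extends ubiquitin marks on histone H2A at DNA breaks, had 203 and 232 (log2 0.19), RNF144B had 50.8 and 57.7 (log2 0.18), just above the floor, and RNF146 had 469 and 530 (log2 0.18).

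At the lower end, RNF215 had intensities of 68.3 and 54.2, or 1.26-fold lower (log2 -0.33). RNF208 had 131 and 111 (log2 -0.23) and RNF151 had 57.0 and 49.5 (log2 -0.20). RNF31, the catalytic subunit of the linear ubiquitin chain assembly complex, had 134 and 119 (log2 -0.17), and its other probe set gave 133 and 118 with the same log2 ratio to 2 decimals. RNF141 had 280 and 255 (log2 -0.14), and RNF212, a factor of meiotic crossing over, had 104 and 94.98 (log2 -0.13), followed by RNF214 at 132 and 121 (log2 -0.13). RNF123 (-0.06), RNF43 (-0.06) and RNF25 (-0.06) completed the 10 lowest. Each was within the band except RNF215, and all were brighter than the floor on both arrays.

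**Figure D3:**
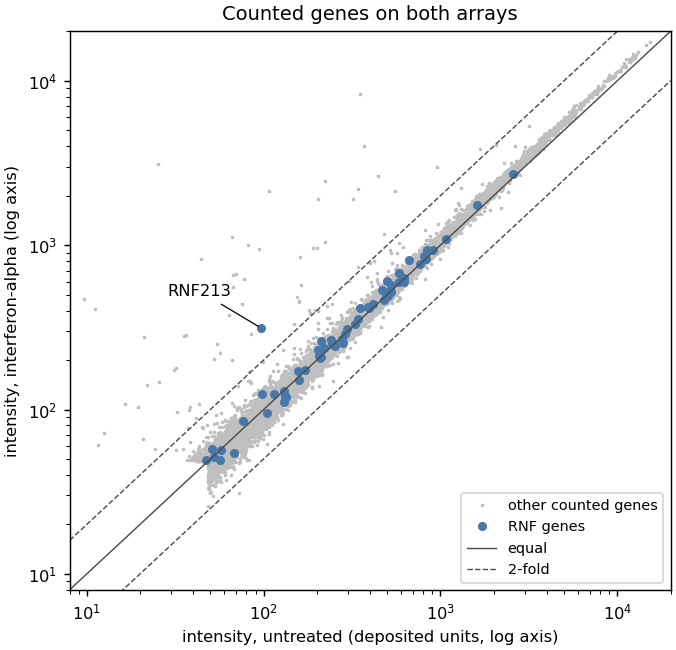
Intensity on the untreated array (horizontal, log axis) against the interferon-alpha array (vertical, log axis) for the 13269 counted genes (grey) and the 59 counted RNF genes (blue), with the line of equal values and dashed lines at 2-fold. The RNF genes follow the diagonal from 47.1 to 2565 on the untreated axis, except RNF213 at 97.2 and 312.

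The family covered a wide span of signal in untreated Huh-7 cells. The counted members had untreated intensities from 47.1 to 2565, with a median of 280. Intensities of different probe sets also reflect how well each probe binds, so they do not rank transcripts by abundance. On the chosen probe sets the brightest signals were those of RNF181 (2565 and 2709), RNF4 (1599 and 1762) and RNF126 (1080 and 1084). RNF4 is a ligase that recognises proteins carrying SUMO chains, and RNF126 clears mislocalised proteins with the chaperone BAG6.

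RNF187 (904 and 928), RNF44 (837 and 939), RNF167 (825 and 828), RNF114 (805 and 854), RNF7 (767 and 766) and RNF220 (621 and 635) followed, with RNF128 between the last pair. The dimmest counted members were RNF17 (47.1 and 49.0), RNF144B, RNF150 (52.7 and 51.3), RNF151 and RNF122 (57.4 and 56.8). RNF17, a tudor-domain protein of germ cells, was counted only through its interferon value, which was barely above the floor, and it was the only member above the floor on 1 array and not on the other. None of these brightest or dimmest members reached 1.5-fold in either direction. Over all counted genes 0.754% were at least 1.5-fold higher and 0.0829% lower, so that absence is not read as a trait of these members.

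The 16 members below the floor on both arrays were RNF5, RNF32, RNF39, RNF112, RNF133, RNF135, RNF148, RNF152, RNF175, RNF180, RNF182, RNF183, RNF186, RNF212B, RNF217 and RNF227. RNF135, also called Riplet, which attaches ubiquitin chains to the RNA sensor RIG-I, had intensities of 18.2 and 19.2. RNF5, a ligase of the endoplasmic reticulum that acts on STING and MAVS, had 23.9 and 30.4 on the probe set of its own. A probe set annotated to both RNF5 and its pseudogene RNF5P1 was bright at 966 and 974, so the dim value may not describe the gene. No ratio is given for these 16 genes.

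Of the 5 transcripts kept apart, RNF126P1 alone was counted, with 157 and 152 (log2 -0.05). RNF126P1 is a pseudogene of RNF126, and whether probes for either read both was not tested.

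Several probe sets read the same RNF gene in 41 cases, and in 28 of them more than 1 was counted. Without RNF213, counted probe sets of a gene spanned a log2 range with a median of 0.13, as large as the robust SD of 0.13 over all genes measured in both cultures. The widest difference apart from RNF213 was in RNF130, a transmembrane ligase related to Drosophila Goliath. Its chosen probe set 217865_at had 290 and 289, whereas 1563975_at had 126 and 85.6 (log2 -0.55). That was the lowest ratio among the 101 counted probe sets of RNF genes other than RNF213. None of these reached 1.5-fold in either direction. Over all counted genes 0.754% were at least 1.5-fold higher and 0.0829% lower, and the share over all probe sets was not computed. With shares this small, the absence of a call is not read as a trait of these genes. RNF207 ranged from -0.31 to 0.15 over its counted probe sets, and RNF187 from -0.23 to 0.04.

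RNF genes were also grouped by role. RNF213, the only member past 2-fold, belonged to none of the lists, so no list could hold a member at least 2-fold higher or lower. That absence is therefore no further result, and over all counted genes 0.43% were at least 2-fold higher and 0% lower. Some genes stand in more than 1 list. Among regulators of nucleic acid sensing and innate signalling 8 of 10 members with a probe set were counted, with a median log2 ratio of 0.02. Their range was from -0.06 (RNF123) to 0.30 (RNF128). RNF114 had a log2 ratio of 0.08, RNF26, which acts on STING, had intensities of 416 and 439 (log2 0.08), and RNF11, a partner of the NF-kB inhibitor A20, had 505 and 517 (log2 0.04). RNF216, also called TRIAD3, had 249 and 251 (log2 0.01), and RNF122, a ligase for RIG-I, had -0.02. RNF185, a relative of RNF5, had 328 and 329. RNF125 was not named in the annotation and was not analysed here.

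Of 8 RING-between-RING ligases, which pass ubiquitin through a cysteine of their own, 7 were counted, with a median log2 ratio of 0.07. Their range was from -0.17 (RNF31) to 0.35 (RNF144A). RNF14 had 393 and 412 (log2 0.07), RNF19A 241 and 264 (log2 0.13) and RNF19B 212 and 210 (log2 -0.01). Among ligases of chromatin, DNA damage and SUMO chains all 8 with a probe set were counted, with a median of 0.10 and a range from -0.04 to 0.19. RNF20 (-0.04) and RNF40 (-0.01), which together add ubiquitin to histone H2B, were at the lower end. RNF8 (0.12), which starts the ubiquitin signal at DNA breaks, and RNF169 (0.12) were near RNF168, and RNF138 (0.08) and RNF111 (0.05) lay between. RNF2 was not named in the annotation and was not analysed here. In all of these lists the members lay on both sides of 0.

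The transmembrane ligases with a protease-associated domain had 7 counted of 9, with a median of -0.0050 and a range from -0.06 to 0.30. RNF13 had 502 and 491 (log2 -0.03), and RNF43, which removes Wnt receptors from the cell surface, had 158 and 152 (log2 -0.06). Of 13 other membrane-embedded ligases 9 were counted, with a median of 0.05. RNF145 and RNF139 were the highest of them, RNF24 (0.13), RNF26 (0.08), RNF103 (0.05) and RNF121 (0.04) followed, and RNF170 (-0.03), which degrades inositol trisphosphate receptors, was the lowest. The 4 ligases of tankyrase, Wnt and cullin pathways had a median of 0.02, with RNF146, which reads poly-ADP-ribose on axin, the highest of them. RNF7, the RING subunit of cullin-5 ligases, and RNF220 (0.03) differed little between the arrays. The median over all counted genes was 0.03.

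**Figure D4:**
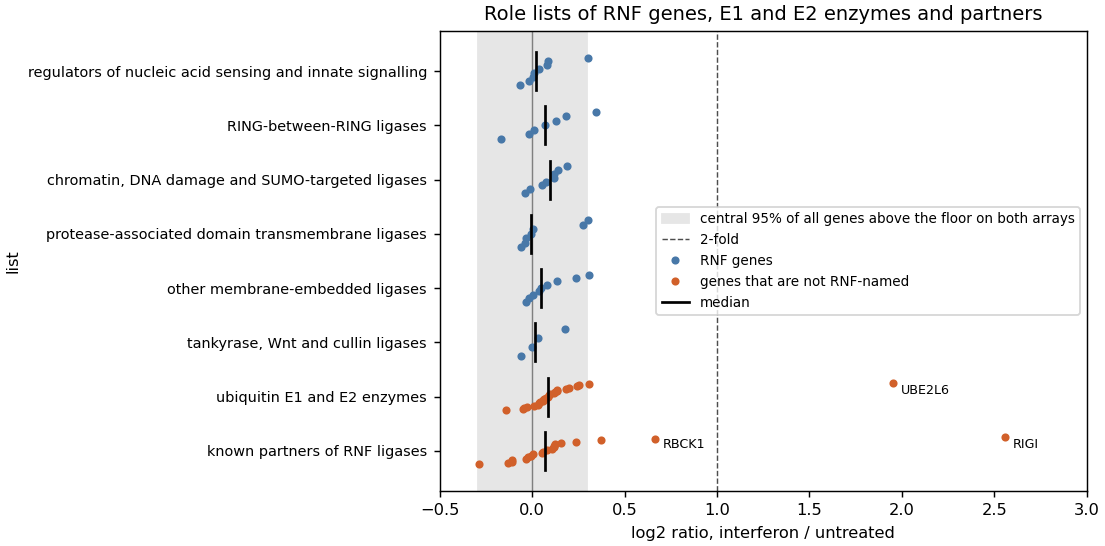
Log2 ratio of interferon over untreated (horizontal axis) for the counted genes of each role list (rows), with black bars at the median and the grey band at the central 95% of all genes above the floor on both arrays. Blue points are RNF genes. RNF213 is in no list and is not shown, so all blue points lie left of the dashed 2-fold line. Orange points are genes that are not RNF-named, of which UBE2L6 at 1.95 and RIGI at 2.56 pass that line and RBCK1 reaches 0.67.

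Of 35 listed E1 and E2 enzymes 26 had a probe set of their own. UBE2D1, UBE2D2, UBE2D3 and UBE2L3 were among those without and were not analysed here. The 25 counted gave 1 gene at least 2-fold higher and 0 lower, against 0.43% of all counted genes higher and 0% lower. It was UBE2L6, the E2 of ISG15 conjugation, at 552 and 2138 (3.87-fold). The remaining counted enzymes lay between log2 ratios of -0.14 (UBE2O) and 0.31 (UBA6), and the median of the list was 0.08. The partners of RNF ligases gave 1 of 20 counted genes at least 2-fold higher, against the same 0.43%, and 0 lower. A single gene called in a list of this size is read here as that gene alone. It was the RNA sensor RIGI, at 63.4 and 374 (5.90-fold) on its chosen probe set. Its other probe sets were below the floor in the untreated culture, 222793_at at 23.3 and 514 (at least 10.6-fold higher) and 218943_s_at at 23.1 and 359 (at least 7.41-fold higher). RIGI is a target of RNF122, which was just above the floor, and of RNF135, which was below it. MAVS had a log2 ratio of -0.02 and STING1 one of -0.29.

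RNF31 joins RBCK1, also called HOIL-1, and SHARPIN in the linear ubiquitin chain assembly complex, which builds linear chains in NF-kB signalling. RBCK1 had intensities of 612 and 971 (1.59-fold) on its chosen probe set, with log2 ratios from 0.18 to 0.67 over 3 counted probe sets. SHARPIN had 199 and 182 (log2 -0.13). RBCK1 was thus past 1.5-fold, while RNF31 and SHARPIN lay inside the central 95% band of genes above the floor on both arrays, and whether the subunits differ from one another beyond replicate error was not tested. The deubiquitinase OTULIN, which removes linear chains, had 134 and 158 (log2 0.24), inside that band. TNFAIP3 (A20) had 104 and 135 (log2 0.37) on its chosen probe set and 57.7 and 80.3 (log2 0.48) on its other one. Both TNFAIP3 ratios were above the upper edge of the band.

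The number of RNF genes above or below 0 depended on the scaling between the arrays. With the deposited scaling 39 of the 59 counted members (66.1%) were above 0 and 20 below, against 58.5% of all counted genes above 0. After median scaling 44 were above and 15 below, and the share above 0 was 74.6% against 65.9% of all counted genes. After lowess scaling 27 were above and 32 below, or 45.8% above against 46.0%. After quantile scaling 22 were above and 37 below, or 37.3% above against 41.0%, so the share of the members was then below that of all genes and not above it. Centring on the 18 hybridisation control probe sets, which were brighter on the interferon array, subtracted 0.43 from every log2 ratio. RNF213 alone was then above 0, at 1.26, and the median of all counted genes was -0.39. The share of members above 0 rose and fell with that of all genes, and small positive or negative ratios of RNF genes are not reported here as differences.

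The sign also went with brightness. Genes exceeding the floor in both cultures were divided into 3 brightness groups of equal size. In the dimmest group the median log2 ratio was -0.04 over all 4247 genes and -0.04 over 13 RNF genes other than RNF213. In the brightest group it was 0.09 over all 4248 genes and 0.04 over 22 RNF genes.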

How the data were processed

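The arrays, 1 per condition, were compared by the log2 ratio, with no test. Per the submitters' processing notes, the authors used GCOS. Not given in the sources used here are its version, the background correction, probe summary and scaling. The deposited file holds linear intensities for 54675 probe sets (62 controls). Genes were named from the platform annotation, in which 41091 probe sets had 1 gene, 1801 had several and 11721 had none named, and no symbol differed from the current RefSeq one for its gene ID. Lower values were raised to the floor, and each gene was read from its probe set of highest mean log2 intensity. The interferon value enters that mean, which favours probe sets that are higher with interferon. The members and lists were chosen with earlier results of these data known. Named genes are RNF213, the 10 highest and 10 lowest ratios, the 10 brightest and 5 dimmest counted members, and examples from the role lists. Other genes were chosen after their values were seen. Alternatives were 2 other floors (40th and 60th percentile), pseudocounts of 50 and 1 without a floor, 4 scalings, 3 other choices of probe set, a 1.5-fold threshold and membership by current symbol. Promoters are those of RefSeq. The procedure was tested on simulated data in which only genes well above the floor were changed, equally on all their probe sets. That test does not cover dimmer genes or genes whose probe sets differ, such as RNF213. Python 3.11.15, pandas 2.3.3 and statsmodels 0.14.6 were used.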

Additional observations from a re-analysis of the deposited data

Results flagged for a closer look

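A probe set annotated to both RNF31 and IRF9 (220788_s_at), left out of the comparisons because it names 2 genes, had intensities of 150 untreated and 265 with interferon, or 1.77-fold (log2 0.82). It is singled out as a signal outside the main measurement. RNF31 and IRF9 are neighbours on chromosome 14. The probe set of IRF9 alone had 107 and 2143 (20.1-fold), whereas both probe sets of RNF31 alone had a log2 ratio of -0.17. Which of the transcripts the shared probe set read was not tested.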

How the results depend on the processing

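RNF213 stayed above 0 under every alternative run, with log2 ratios from 0.56 to 1.71. It was 1.30 with a pseudocount of 50, 1.26 centred on hybridisation controls, 1.502 as the median over counted probe sets, and 0.56 with the probe set brightest on the untreated array and likewise without _x_at and _s_at probe sets. In these last settings the count of RNF genes at least 2-fold higher was 0, and in the others it was 1. Centring on hybridisation controls moved the medians to -0.39 for all genes and for RNF genes, -0.40 for innate regulators, -0.36 for RING-between-RING ligases, -0.33 for chromatin ligases, -0.43 for protease-associated domain ligases, -0.38 for other membrane ligases, -0.41 for tankyrase, Wnt and cullin ligases, -0.34 for E1 and E2 enzymes and -0.36 for partners. It also gave 13 genes at least 2-fold lower in all, against 1 with the lower floor and 1 with a pseudocount of 1. The interferon check list, with a median of 3.85, had 3.55 with the higher floor, 3.10 with a pseudocount of 50, 3.42 centred on hybridisation controls, 3.67 with the probe set brightest untreated or the median over probe sets and 3.62 without _x_at and _s_at. At 1.5-fold 100 genes were higher and 11 lower. Changes under 0.13, the robust SD over genes, are not listed. Besides RNF213, 51 genes were rerun singly, all of them RNF genes except UBE2L6. All 51 shifted by more than 0.13 when centred on hybridisation controls, and at most 2 of those with a value did in any other setting. Single ratios of the partner genes and of genes with an RNF synonym were not rerun. With the higher floor 45 of the 51 had a value, and without _x_at and _s_at probe sets 40. Membership by current symbol repeated the main run, because no symbol differed from the current one. No paired analysis was possible because each condition has 1 array.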

Other observations

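Many RING proteins once had RNF numbers and now carry other symbols. This list was drawn from RefSeq synonyms after the values were seen, and its genes were not checked for a RING fold. Of 110 counted genes with an RNF synonym, 6 (5.45%) were at least 2-fold higher and 0 lower, against 0.43% of all counted genes and 1 of 59 (1.69%) of the counted genes still named RNF, and whether these shares differ was not tested. The 6 genes were DTX3L (formerly RNF143, 9.40-fold), TRIM25 (RNF147, 6.39-fold), TRIM69 (RNF36, 4.55-fold), PML (RNF71, 2.88-fold), TRIM56 (RNF109, 2.25-fold) and TRIM5 (RNF88, 2.07-fold). TRIM5 was close to the threshold. Each fold is that of the chosen probe set, and other probe sets or settings were not examined for these 6 genes. DTX3L is the partner of PARP9, TRIM25 a ligase that acts on RIG-I, PML the organiser of nuclear bodies and TRIM5 a factor that binds retroviral capsids. RBCK1, once RNF54, was 1.59-fold higher.

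Some intensities were equal on both arrays in every decimal compared (6). This held for 4 of the 162 RNF probe sets (2.47%) and for 4.32% of all probe sets other than controls, among them RNF115 on 226468_at (286 on both). A further 5.56% of RNF probe sets and 4.22% of all differed by a multiple of 0.5 within 0.001.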
